A study of Homo sapiens with 8 samples.

Results

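The genes described here encode the inhibitors and activators of the kinases that carry a cell out of G1, together with MYC. The members are 10 genes, taken by symbol out of the 26364 genes of the count table. They are the CIP/KIP inhibitor genes CDKN1A, CDKN1B and CDKN1C, the INK4 inhibitor genes CDKN2C and CDKN2D, the D cyclin genes CCND1, CCND2 and CCND3, the cyclin E gene CCNE1, and MYC. All 10 passed the expression filter and were tested among 14201 genes. RNA was sequenced from Ishikawa cells, a long-used cell line from a human endometrial adenocarcinoma. The cells received 100 nM dexamethasone (Dex, a synthetic agonist of the glucocorticoid receptor), 10 nM estradiol (E2, the natural agonist of the estrogen receptors), both hormones at these doses (the combination), or the vehicle DMSO. Each of these 4 groups had 2 libraries. All groups were grown without phenol red and on serum stripped with charcoal, which is low in steroid hormones. The sample labels give a treatment of 8 hr, while the treatment protocol gives 1 hr, and the sources used here do not settle which applies. Nothing in the labels tells separate cultures from repeat libraries of 1 culture, so p-values cover only the library-to-library spread, which may be technical.

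D cyclins bind CDK4 and CDK6, and cyclin E binds CDK2. These kinases phosphorylate the retinoblastoma protein, which then releases E2F factors that switch on the genes of S phase. INK4 proteins bind CDK4 and CDK6, whereas CIP/KIP proteins also inhibit CDK2 complexes. MYC is a transcription factor that pairs with MAX and drives growth and G1 genes. In breast cancer cells estrogen is known to raise MYC and CCND1, and in HeLa cells glucocorticoids are known to raise CDKN1C.

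The libraries held between 17846211 and 22487333 counts. Levels are CPM (counts scaled to library size, with TMM factors). A call means that edgeR's quasi-likelihood test gave a p under 0.05 after Benjamini-Hochberg adjustment over all genes tested. Markers of the epithelial label summed to between 3252 and 4714 CPM in every library. Of the 4 leukocyte markers CD3E was at 0 in all libraries, and the list summed to between 0.853 and 1.85 CPM. The 4 endothelial markers summed to between 3.61 and 4.38 CPM in Dex, 2.03 and 2.69 in E2, 3.10 and 3.46 in the combination, and 1.85 and 2.52 in DMSO. KDR, the endothelial marker called higher in Dex, had a log2 fold change of 2.92 against DMSO (adjusted p = 0.0102). At these low levels the KDR value ranged between 2.37 and 3.74 with a library left out. The epithelial sum was also highest in Dex, at 4218 and 4714 CPM, against 3252 and 3827 CPM in DMSO, and the part of these markers in the results on the members was not tested. The 4 fibroblast markers summed to between 125 and 187 CPM. The glucocorticoid target PER1 was at 127 ± 2.49 CPM in Dex and 19.0 ± 1.01 CPM in DMSO, and TSC22D3 and FKBP5 were also called higher. The estrogen target PGR was at 36.4 ± 6.54 CPM in E2 and 3.31 ± 1.11 CPM in DMSO (SD, n = 2 each), and GREB1 was also called higher. In the Dex group, replicate 1 stood apart, with 8.91 CPM of PGR against 2.47 CPM in replicate 2. Members whose call changed without that library are named with their values.

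Dexamethasone raised the CIP/KIP inhibitor genes CDKN1C and CDKN1A, the only members called in Dex against DMSO. The background for this comparison was 0.965% of all genes tested, or 0.908% for genes called higher. With estradiol alone 0 members were called by edgeR or limma-voom and 1 by DESeq2, and 2 had an unadjusted p under 0.05 (background 1.80% called and 11.4% at the unadjusted p). With both hormones CDKN1A was the only member called against DMSO (background 2.19%, or 1.48% for genes called higher). Against Dex alone, the combination had lower CDKN1C and CCND1 (background 2.67%, or 1.84% for genes called lower). MYC was called in none of the 8 comparisons by edgeR, DESeq2 or limma-voom, and none gave it an unadjusted p under 0.05 in edgeR.

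**Figure D1:**
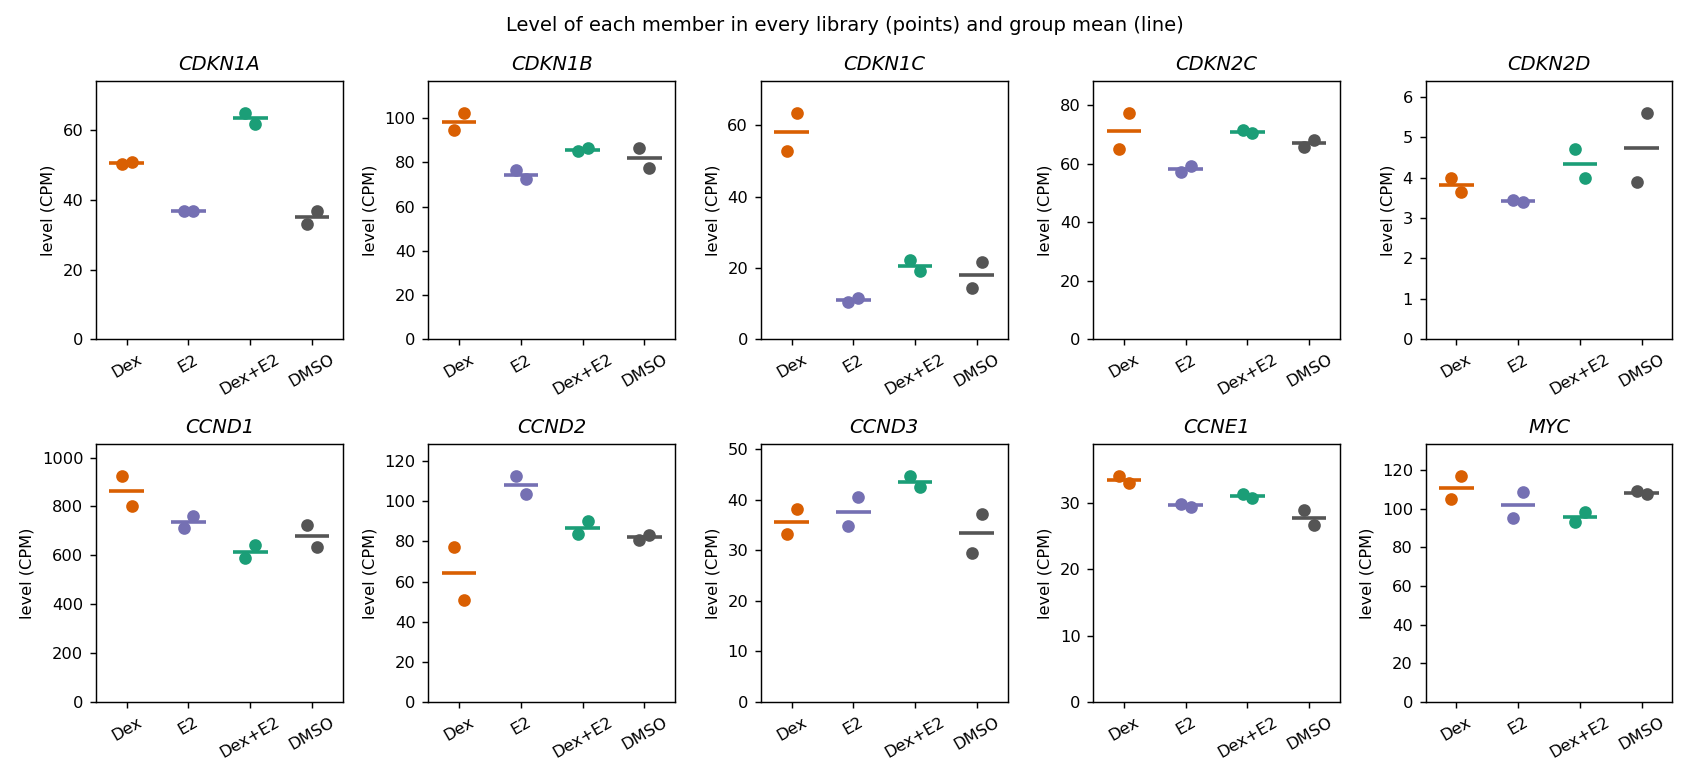
The level of each member in CPM (vertical axis, from 0, its own scale in each panel) in the libraries of Dex, E2, Dex+E2 and DMSO; each point is a library and each line a group mean (n = 2). CDKN1C stands at 52.8 and 63.4 CPM in Dex and below 23 CPM in every other library, while the MYC libraries lie between 93.0 and 117 CPM.

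CDKN1C encodes p57, the CIP/KIP inhibitor best known as an imprinted gene. Its level was 52.8 and 63.4 CPM in the Dex libraries, 10.5 and 11.5 CPM in E2, 22.3 and 19.0 CPM in the combination, and 14.4 and 21.7 CPM in DMSO. Both Dex libraries stood above all others, both E2 libraries below all others, and the combination overlapped DMSO. In Dex against DMSO it was 3.21-fold higher (95% interval 2.45 to 4.20; log2 fold change 1.68 ± 0.18, adjusted p = 0.000815). In bulk RNA, fewer cells of a type and less RNA per cell cannot be told apart. The CDKN1C call held in all 15 alternative fits, and the log2 fold change was 1.81 without Dex replicate 1.

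In the combination against Dex alone, CDKN1C fell by 1.49 on the log2 scale (SE 0.17, 95% interval -1.87 to -1.11; adjusted p = 0.00273), to 0.356 times its level in Dex. That call held in all 13 alternative fits. The fall was not particular to CDKN1C. Of the glucocorticoid targets, TSC22D3 (log2 fold change -1.01, adjusted p = 0.00338) and PER1 (-0.45, adjusted p = 0.0388) were also called lower in this comparison. FKBP5 was not called there, and a link between these falls was not tested. In the combination against DMSO the log2 fold change of CDKN1C was 0.19 ± 0.18 (adjusted p = 0.843), with an interval of -0.21 to 0.59. This value was -0.07 without DMSO replicate 1.

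The estradiol effect on CDKN1C without dexamethasone was a log2 fold change of -0.71 ± 0.19 in E2 against DMSO and missed the threshold (adjusted p = 0.107). DESeq2 called it, and so did the edgeR fits without a low-count filter and without DMSO replicate 1 (log2 fold change -0.98, adjusted p = 0.00872). Without DMSO replicate 2 the value was -0.38 (adjusted p = 0.507). The dexamethasone effect in cells that also received estradiol was 0.91 ± 0.19 in the combination against E2 and also missed it (adjusted p = 0.113). DESeq2 called this one, as did edgeR without the filter, with the E2 and combination libraries alone, or without either DMSO library (adjusted p = 0.00860 and 0.00972). Averaged over cells with and without the other hormone, CDKN1C was 2.45-fold higher with dexamethasone (interval 2.01 to 2.98, adjusted p = 0.000364) and 0.466-fold with estradiol (interval 0.383 to 0.567, adjusted p = 0.000627). Both averaged calls held without each of the 8 libraries in turn. The averaged comparisons called 1.07% of all genes for dexamethasone (1.00% higher), with 2 members, both higher. They called 5.80% for estradiol (3.26% lower), with 1 member, CDKN1C.

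CDKN1A encodes p21, a CDK inhibitor known to be switched on after DNA damage. It was at 50.3 and 50.8 CPM in the Dex libraries, 36.7 and 36.8 CPM in E2, 64.8 and 61.9 CPM in the combination, and 33.1 and 36.8 CPM in DMSO. All 4 libraries with dexamethasone stood above all 4 without it, and the combination stood above Dex alone. The difference between the combination and Dex was not called (log2 fold change 0.32 ± 0.10, adjusted p = 0.114). In Dex against DMSO CDKN1A was 1.45-fold higher (interval 1.25 to 1.68, adjusted p = 0.0283). That call was lost without 7 of the 8 libraries in turn, namely every library but DMSO replicate 2 (adjusted p up to 0.202), while the log2 fold change stayed between 0.46 and 0.62. It was also lost in a fit of the Dex and DMSO libraries alone (adjusted p = 0.175). Without Dex replicate 1 the CDKN1A log2 fold change was 0.54 (adjusted p = 0.109).

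In the combination CDKN1A was 1.81-fold higher than in DMSO (interval 1.56 to 2.10, adjusted p = 0.000827), a call kept in all 13 alternatives. Against E2 alone the combination was 1.72-fold higher (interval 1.49 to 2.00, adjusted p = 0.00476; background 0.275% of genes, or 0.239% called higher). Without E2 replicate 1, E2 replicate 2 or combination replicate 1 this comparison missed the threshold (adjusted p up to 0.0883), at a log2 fold change between 0.75 and 0.80. Averaged over both backgrounds, dexamethasone raised CDKN1A 1.58-fold (interval 1.42 to 1.75, adjusted p = 0.000544), in every fit that left out a library. Estradiol, by the same average, gave 1.15-fold (interval 1.03 to 1.27, adjusted p = 0.133).

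CDKN1B encodes p27, which holds CDK2 inactive in resting cells. Its libraries were at 94.4 and 102 CPM in Dex, 76.5 and 72.4 CPM in E2, 85.1 and 86.4 CPM in the combination, and 86.4 and 77.3 CPM in DMSO. The Dex libraries were the highest and the E2 libraries the lowest, but no comparison called the gene. The averaged dexamethasone effect was a log2 fold change of 0.23 ± 0.07 (adjusted p = 0.217) and the averaged estradiol effect -0.17 ± 0.07 (adjusted p = 0.203).

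Promoters of CDKN1A, called higher with dexamethasone, and CDKN1B, not called, are shown as the 250 bases before the RefSeq start (GRCh38.p14, + strand, not the build of the counts). Capitals mark GC boxes (GGGCGG on either strand). The windows are chr6:36678464-36678713 for CDKN1A, with 4 GC boxes, the pair nearest the start sharing a base, and chr12:12717118-12717367 for CDKN1B, with 1.
CDKN1A: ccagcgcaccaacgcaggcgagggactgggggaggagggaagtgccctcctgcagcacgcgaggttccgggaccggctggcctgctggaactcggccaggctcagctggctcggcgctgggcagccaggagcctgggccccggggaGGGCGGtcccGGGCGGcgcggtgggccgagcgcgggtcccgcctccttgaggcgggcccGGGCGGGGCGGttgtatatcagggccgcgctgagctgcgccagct
CDKN1B: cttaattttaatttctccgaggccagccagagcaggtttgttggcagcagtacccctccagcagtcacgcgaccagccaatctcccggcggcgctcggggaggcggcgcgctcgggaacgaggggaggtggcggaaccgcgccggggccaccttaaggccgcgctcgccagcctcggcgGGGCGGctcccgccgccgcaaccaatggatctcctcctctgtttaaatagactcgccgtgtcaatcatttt

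Windows of 300 bases (250 before to 50 after the start) were searched on both strands for 6 members with an entry. These were CDKN1A, CDKN1B, CDKN2C, CDKN2D, CCND3 and CCNE1, and MYC was left out of the search. The palindromic glucocorticoid response element (arms AGAACA and TGTTCT, 3 bases apart) and its single arm TGTTCT had no match in them, and 0.00285% and 14.8% of 35116 promoters held these. The palindromic estrogen response element (arms GGTCA and TGACC, 3 bases apart), held by 0.0570% of promoters, had no match. Its single arm GGTCA (37.4% of promoters; every full element also holds it) matched once in CDKN2D and once in a CCND3 window. GC boxes were in 45.0% of all promoters. In these windows other members that were not called held them too. CCNE1 had 7, CDKN2D 3, the CDKN2C windows 0, 6 and 1, and the CCND3 windows 5, 4 and 0. The MYC-type E-box CACGTG (7.26% of promoters) matched in 2 of the 3 CDKN2C windows. A match describes letters only, and the absence of one in these windows says nothing of binding elsewhere.

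To compare genes with each other, levels were divided by exon length (GENCODE 29, GRCh38, so an approximation for counts made on hg19). In DMSO, CCND1 had the highest level per length, 154 ± 14.8 CPM per kb. MYC (36.1 ± 0.365), CDKN1B (30.8 ± 2.43), CDKN2C (20.2 ± 0.491), CDKN1A (13.9 ± 1.05), CCNE1 (13.4 ± 0.741), CCND2 (12.7 ± 0.248), CDKN1C (9.29 ± 2.68), CCND3 (8.45 ± 1.37) and CDKN2D (3.15 ± 0.803) followed, all in CPM per kb (SD, n = 2). Of these neighbours CDKN1A and CCNE1, CCNE1 and CCND2, and CDKN1C and CCND3 differed by less than their summed SDs. Among the CIP/KIP transcripts per length, CDKN1C made up 32.8% and 35.7% in the Dex libraries, 11% and 12.4% in E2, 16.5% and 14.6% in the combination, and 13.9% and 20.4% in DMSO. The CIP/KIP sum was 82.8 and 91.3 CPM per kb in Dex, 48.8 and 47.9 in E2, 69.3 and 67.0 in the combination, and 53.1 and 54.9 in DMSO. These sums do not overlap between any of the 4 groups and are a description without a test. With 2 libraries a group such separation is common. Among single genes, 36.2% of those tested did not overlap between Dex and DMSO, and no such share was taken for sums of genes.

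**Figure D2:**
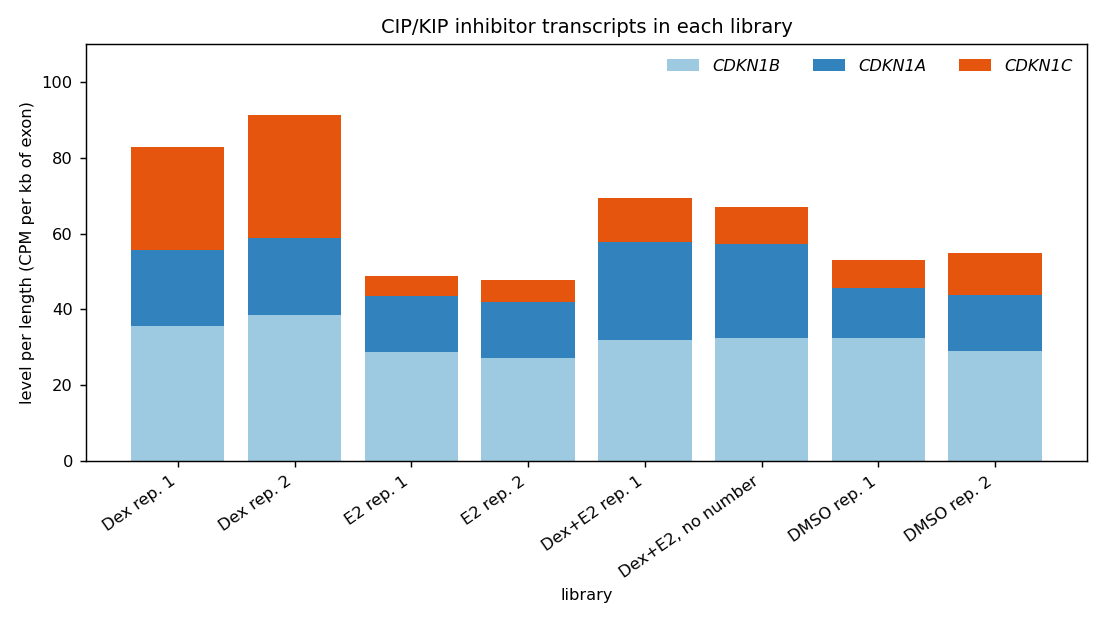
Level per exon length (CPM per kb, bars stacked from 0) of the CIP/KIP inhibitor transcripts CDKN1B, CDKN1A and CDKN1C in each of the 8 libraries. The Dex bars reach 82.8 and 91.3 CPM per kb, with CDKN1C the part that differs most from the DMSO bars.

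The INK4 members CDKN2C and CDKN2D were called in none of the 8 comparisons by edgeR, DESeq2 or limma-voom. CDKN2C had an unadjusted p under 0.05 in 2 of these comparisons. CDKN2C, which encodes p18, was at 65.2 and 77.2 CPM in Dex, 57.2 and 59.2 CPM in E2, 71.3 and 70.5 CPM in the combination, and 65.8 and 68.1 CPM in DMSO. The E2 libraries were the lowest, and the combination against E2 gave a log2 fold change of 0.29 ± 0.10 (adjusted p = 0.627). CDKN2D, which encodes p19, had the fewest reads of the members, between 61 and 115 counts a library. It was at 4.00 and 3.65 CPM in Dex, 3.43 and 3.40 CPM in E2, 4.70 and 4.00 CPM in the combination, and 3.88 and 5.59 CPM in DMSO, where the libraries of this gene spread most. Its intervals were wide at this depth, for E2 against DMSO between -0.95 and 0.0025 on the log2 scale around a log2 fold change of -0.47 (adjusted p = 0.442), which was -0.71 without DMSO replicate 1 and -0.18 without DMSO replicate 2.

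CCND1, the D cyclin gene amplified in many cancers, was at 925 and 801 CPM in the Dex libraries, 713 and 762 CPM in E2, 589 and 641 CPM in the combination, and 725 and 633 CPM in DMSO. Both Dex libraries stood above all others, and the combination lay below Dex and E2 and overlapped DMSO. In the combination against Dex, CCND1 fell by 0.49 on the log2 scale (SE 0.11, 95% interval -0.73 to -0.24, adjusted p = 0.0466), that is, to 0.713 times. This call stood close to the threshold and was lost, with adjusted p up to 0.332, when any 1 of the 6 Dex, E2 and combination libraries was left out. Without Dex replicate 1 the log2 fold change of CCND1 was -0.38 (adjusted p = 0.135). Dex alone against DMSO gave 0.35 ± 0.11 (adjusted p = 0.283) and E2 alone 0.12 ± 0.11 (adjusted p = 0.824).

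CCND2, a D cyclin gene, was at 77.2 and 51.0 CPM in Dex, 113 and 104 CPM in E2, 83.6 and 90.0 CPM in the combination, and 80.8 and 83.1 CPM in DMSO. The Dex libraries were the lowest and the E2 libraries the highest, with a wide gap between the libraries of the Dex group. The averaged estradiol effect was 1.34-fold (interval 1.13 to 1.58) and narrowly missed the threshold (adjusted p = 0.0540). DESeq2, limma-voom and edgeR without a low-count filter called it. Without Dex replicate 1, the library that stood apart at PGR, CCND2 was called lower in Dex against DMSO (log2 fold change -0.69, adjusted p = 0.0342), against -0.35 ± 0.16 with it (adjusted p = 0.499). The same omission also made CCND2 called higher in the combination than in Dex (log2 fold change 0.77, adjusted p = 0.00955), against 0.44 ± 0.16 with all libraries (adjusted p = 0.196). The averaged effects on CCND2 without that library were -0.50 for dexamethasone (adjusted p = 0.0117; -0.33 ± 0.11 and 0.305 with it) and 0.58 for estradiol (adjusted p = 0.00160). Without Dex replicate 2, the lowest CCND2 library, none of these was called. The log2 fold changes were then -0.08 in Dex against DMSO, 0.16 in the combination against Dex, -0.20 for averaged dexamethasone and 0.28 for averaged estradiol (adjusted p = 0.0850 for the last).

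CCND3 was at 33.3 and 38.1 CPM in Dex, 34.9 and 40.4 CPM in E2, 44.7 and 42.4 CPM in the combination, and 29.5 and 37.1 CPM in DMSO. The combination stood above every other library, and its log2 fold change against DMSO was 0.39 ± 0.13 (adjusted p = 0.251). It was 0.23 without DMSO replicate 1 and 0.56 without DMSO replicate 2. CCNE1, the gene of the cyclin that activates CDK2, was at 34.1 and 33.0 CPM in Dex, 29.9 and 29.5 CPM in E2, 31.4 and 30.8 CPM in the combination, and 28.9 and 26.7 CPM in DMSO. The groups of CCNE1 did not overlap, yet the largest difference, Dex against DMSO, was a log2 fold change of 0.27 ± 0.10 (adjusted p = 0.360). Groups without overlap made up 36.2% of all genes in that comparison, and 5 members stood all above and 1 all below DMSO.

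MYC was at 105 and 117 CPM in Dex, 95.2 and 109 CPM in E2, 93.0 and 98.3 CPM in the combination, and 109 and 107 CPM in DMSO. Dex and E2 both overlapped DMSO, and the combination lay below it. The 95% intervals of the MYC fold change against DMSO were 0.879 to 1.20 for Dex, 0.808 to 1.10 for E2 and 0.758 to 1.03 for the combination. The MYC log2 fold change was 0.04 ± 0.10 in Dex (adjusted p = 0.936), -0.09 ± 0.10 in E2 (adjusted p = 0.881) and -0.18 ± 0.10 in the combination (adjusted p = 0.631). These intervals are not detection limits, and the smallest change of MYC that these libraries could detect was not tested. In Dex against DMSO, CCND1 was not called at 1.27-fold (adjusted p = 0.283), nor CCNE1 at 1.21-fold (adjusted p = 0.360). CDKN1A was called there at 1.45-fold (adjusted p = 0.0283).

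**Figure D3:**
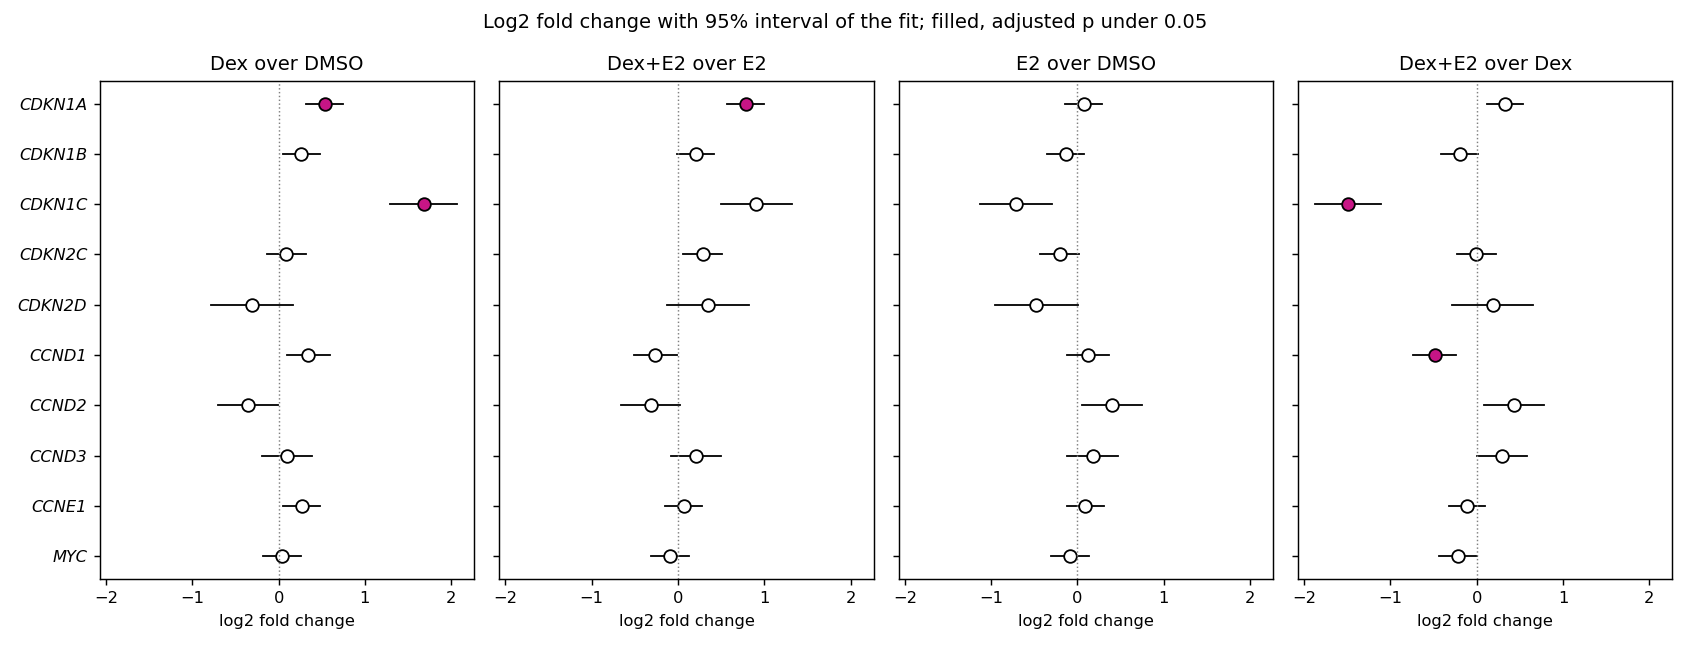
Log2 fold change (horizontal axis) of each member with its 95% interval from the edgeR fit, for dexamethasone without and with estradiol (left pair) and estradiol without and with dexamethasone (right pair). Filled points have an adjusted p under 0.05: CDKN1A and CDKN1C in Dex over DMSO, CDKN1A in Dex+E2 over E2, and CDKN1C and CCND1 in Dex+E2 over Dex.

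Whether the effect of both hormones departs from the sum of the single effects was tested as an interaction. Over all genes 0.0211% were called, and of the members 0 by edgeR, DESeq2 or limma-voom. Of the members 2 had an unadjusted p under 0.05, beside 5.16% of all genes. For CDKN1C the single effects summed to 0.97 on the log2 scale, against 0.19 in the combination, an interaction of -0.78 ± 0.26 (95% interval -1.34 to -0.21, unadjusted p = 0.0116, adjusted p = 0.792 in edgeR). This value was -0.51 without DMSO replicate 1 and -1.11 without DMSO replicate 2. For CCND1 they summed to 0.47 against -0.14, an interaction of -0.61 ± 0.16 (95% interval -0.95 to -0.26, unadjusted p = 0.00273, adjusted p = 0.578 in edgeR). For CDKN1A the sum was 0.61 against 0.86, with an interaction of 0.25 ± 0.14 (adjusted p = 0.973). Among the other 7 members the lowest adjusted p was 0.945, for CDKN2D.

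**Figure D4:**
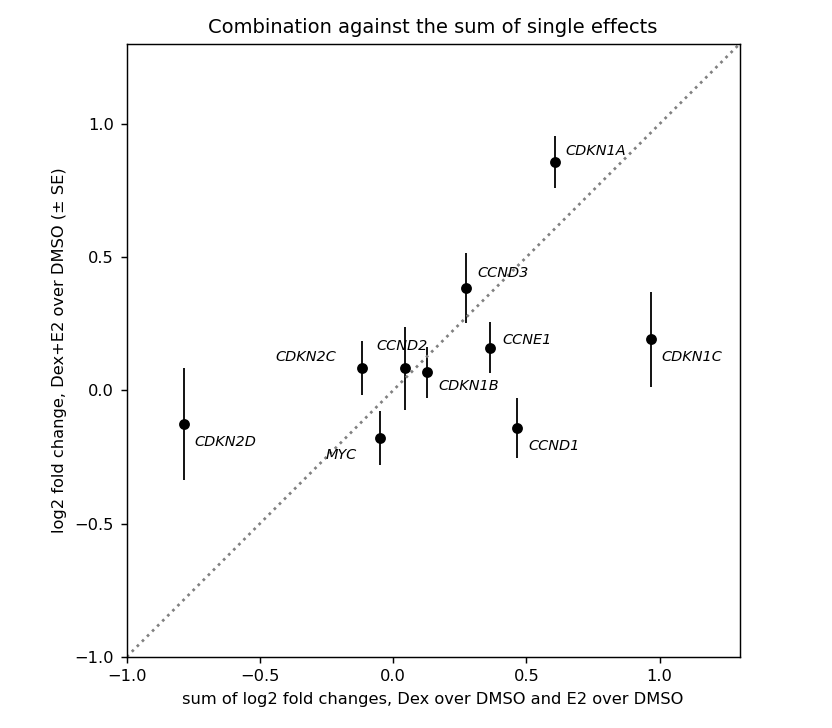
Log2 fold change of each member in Dex+E2 over DMSO (vertical axis, point ± SE of the fit) against the sum of its log2 fold changes in Dex over DMSO and E2 over DMSO (horizontal axis); the dotted line marks equal values. CDKN1C (0.19 against a sum of 0.97) and CCND1 (-0.14 against 0.47) lie farthest below the line, and the interaction was called for 0 members.

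The rest of the G1 pathway was followed with 77 genes in 7 lists, all tested. For dexamethasone, averaged over both backgrounds, 1 of them was called, and for estradiol 5, beside 1.07% and 5.80% of all genes. An unadjusted p under 0.05 was given to 10.2% of all genes for dexamethasone and 20.1% for estradiol. Among the 10 members, 6 had such a p for dexamethasone and 6 for estradiol. The members were chosen with earlier results of these data known, so these counts do not measure an excess over all genes. A list of 8 other G1 genes held CDK2, CDK4 and CDK6, and also a further cyclin E gene and INK4 inhibitor genes that are not members. Of these 8 genes 0 were called in either average by edgeR, DESeq2 or limma-voom. For dexamethasone and estradiol 0 and 1 of them had an unadjusted p under 0.05. Their averaged log2 fold changes lay between -0.12 and 0.19 for dexamethasone and between -0.14 and 0.21 for estradiol. Of 14 S phase and mitosis genes 0 were called by any of these tools, 0 and 2 at an unadjusted p under 0.05, and their values lay between -0.16 and 0.09 and between -0.20 and 0.15. Of 7 ubiquitin ligase genes for G1 cyclins, p27 and MYC, 0 were called by any of these tools, 0 and 1 at an unadjusted p under 0.05.

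Among 13 RB and E2F family genes, E2F6, a repressor of the family, rose with estradiol (averaged log2 fold change 0.38 ± 0.08, adjusted p = 0.0189) and no gene was called for dexamethasone by any tool (1 at an unadjusted p under 0.05). Among 13 MAX network genes, MXD4, which competes with MYC for MAX, fell by 0.34 on the log2 scale with estradiol (SE 0.09, adjusted p = 0.0490). None was called for dexamethasone by any tool, with 1 at an unadjusted p under 0.05. Of 15 MYC target genes 0 were called in either average by any tool, and 4 in each had an unadjusted p under 0.05. Their median was -0.08 for dexamethasone and 0.07 for estradiol, while the median over all genes was 0.000186 and -0.0035.

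Of 7 DNA damage response genes 1 was called with dexamethasone and 3 with estradiol (2 by limma-voom), against the same background. BTG2, an antiproliferative gene, was at 70.3 and 74.2 CPM in Dex, 29.9 and 28.6 CPM in E2, 52.3 and 50.2 CPM in the combination, and 42.9 and 39.7 CPM in DMSO. Both Dex libraries of BTG2 were the highest and both E2 libraries the lowest. BTG2 rose by 0.81 ± 0.07 on the log2 scale with dexamethasone (adjusted p = 0.000113) and fell by 0.50 with estradiol (SE 0.07, adjusted p = 0.00170), both averaged and both called without each library in turn. With estradiol the apoptosis gene BBC3 fell by 0.72 (SE 0.15, adjusted p = 0.0184) and ZMAT3 rose by 0.33 ± 0.08 (adjusted p = 0.0456). E2F6, MXD4, BBC3 and ZMAT3 each lost the call without 5 to 7 of the 8 libraries in turn. Both E2 libraries or both combination libraries were among them for each of these genes, with adjusted p up to 0.208. The count of 5 list genes called for estradiol was 1 without E2 replicate 1 or either combination library, 2 without Dex replicate 2 or E2 replicate 2, and 3 without Dex replicate 1.

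**Figure D5:**
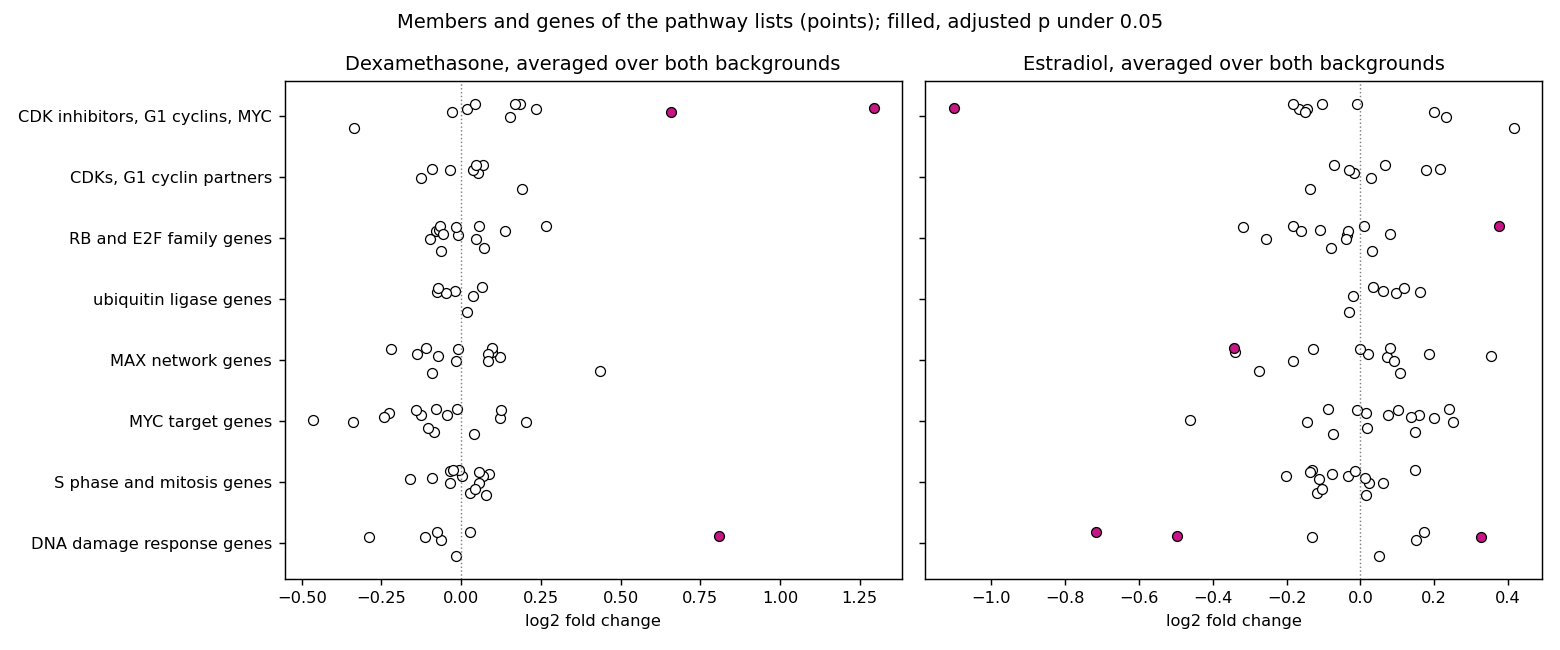
Averaged log2 fold change (horizontal axis) for dexamethasone (left) and estradiol (right) of the 10 members (top row) and of the 77 genes in 7 pathway lists; each point is a gene and the vertical scatter within a row has no meaning. Filled points have an adjusted p under 0.05: 2 members and BTG2 on the left, 1 member and 5 list genes on the right.

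The genes whose levels followed the called members most closely were taken by Pearson's r of log2 CPM over the 8 libraries, among 11973 other genes, as a description. For CDKN1C these were FAHD2A (0.991), HIF3A, an oxygen-response factor gene (0.988), and LEFTY1, a Nodal antagonist gene (0.987). HIF3A was at 8.57 ± 0.82 CPM in Dex, 1.11 ± 0.19 in E2, 2.34 ± 0.58 in the combination and 1.81 ± 0.40 in DMSO. For CDKN1A they were PRR15 (0.988), ZFP36, whose protein speeds decay of AU-rich mRNAs (0.977), and SLC16A14 (0.977). ZFP36 was at 18.6 ± 0.98 CPM in Dex, 12.4 ± 0.51 in E2, 25.1 ± 0.46 in the combination and 9.98 ± 0.36 in DMSO. For CCND1 they were GIN1 (0.953), MEX3A (0.953) and the Wnt ligand gene WNT10A (0.950).

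Some members share exon bases with other annotated genes, and the strand setting of the counting is not given in the sources used here. CCND1 shares 497 bases with LTO1 on the opposite strand, listed under an older symbol with 184 to 318 counts a library. CCND2 shares 126 bases with its antisense gene CCND2-AS1, which had 0 or 1 count a library. CDKN1A shares 146 bases with the noncoding gene DINOL, not analysed here. CCND2 also shares 989 bases with AC008012.1 on the same strand, a model not analysed here, and CCND3 shares 24 bases with AL513008.1. Apart from LTO1, CCND2-AS1 and AC008012.1, no gene matched the longest protein-coding transcript of a member over 100 bases or more at 95% identity. Exons outside that transcript were not searched.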

How the data were processed

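RNA was sequenced from 8 libraries of Ishikawa cells in 4 groups. The authors deposited raw counts per gene symbol, which are whole numbers and were used for all levels and tests; their scaled table was not used. The submitters' processing notes list featureCounts 1.5.1 (from Subread), HISAT2 2.0.4 and DESeq2 1.14.1, and the build hg19. Annotation and strand setting: not given in the sources used here. Columns were assigned by name. Both combination columns carry the number 1, so the one that does not match a label exactly was used as a combination library without a number.

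Counts were filtered with filterByExpr, scaled by TMM and fitted with edgeR 4.0.16 (glmQLFit, glmQLFTest; limma 3.58.1, R 4.3.3) over all 8 libraries and 4 groups, with 4 residual degrees of freedom. There were 8 comparisons: each hormone group against DMSO, the combination against either hormone alone, the interaction, and each hormone's effect averaged over cells with and without the other. P-values were adjusted over all 14201 genes by the Benjamini-Hochberg method. The test was checked on simulated data. Alternatives were RLE size factors, DESeq2 1.42.0, limma-voom, no low-count filter, fewer libraries and a replicate block. Each standard error is the log2 fold change over the root of its F statistic. Genes sharing sequence were searched with blastn 2.17.0. All members are named, list genes where called, and the 3 genes most like each called member with a mean log2 CPM above 1. A gene of the lists is not reported here. The members and lists were chosen with earlier results of these data known.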

Additional observations from a re-analysis of the deposited data

How the results depend on the processing

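Over 80 pairs of a member and a comparison the alternatives gave 1050 values, of which 989 kept direction and side of the threshold, 16 passed it newly, 18 lost it and 27 turned direction. None of the 27 was called, with all libraries or under the alternative. CDKN2C in the combination against Dex turned with all libraries kept, to 0.0021 in limma-voom and 0.0072 without a low-count filter, against -0.0041. The others turned with a library left out, where these log2 fold changes ranged as follows. In Dex against DMSO, CDKN2C ranged between -0.036 and 0.20, CCND3 between -0.059 and 0.28, and MYC between -0.040 and 0.11. In E2 against DMSO, CDKN1A ranged between -0.0020 and 0.15, and MYC between -0.20 and 0.0059. In the combination against DMSO, CDKN1B ranged between -0.010 and 0.15, CDKN1C between -0.073 and 0.52, and CDKN2D between -0.36 and 0.16. MYC in the combination against E2 ranged between -0.18 and 0.017, and CDKN2C in the combination against Dex between -0.12 and 0.12. The interaction ranged between -0.14 and 0.015 for CDKN1B, -0.23 and 0.37 for CCND2, and -0.070 and 0.27 for CCND3. Averaged dexamethasone ranged between -0.098 and 0.17 for CDKN2D, -0.011 and 0.094 for CCND1, and -0.073 and 0.027 for MYC, and averaged estradiol between -0.037 and 0.020 for CCNE1. The cause was not tested. Without a low-count filter the genes called numbered 253 in Dex against DMSO (137 with it), 442 in E2 against DMSO (256), 132 in the combination against E2 (39), 658 in the combination against Dex (379), 32 for the interaction (3) and 295 for averaged dexamethasone (152). DESeq2 called 68 in the combination against E2 and 13 for the interaction. With the compared libraries alone 63 genes were called in Dex against DMSO and 151 in the combination against E2. Leaving out each library gave 78 to 127 genes for Dex against DMSO, 58 to 298 for E2 against DMSO, 157 to 325 for the combination against DMSO (311), 10 to 68 against E2, 89 to 488 against Dex, 1 to 10 for the interaction, 82 to 183 for averaged dexamethasone and 422 to 904 for averaged estradiol (824). Members called in Dex against DMSO were 1 with the compared libraries alone and 1 to 2 with a library left out. In E2 against DMSO 1 was called by DESeq2 and without the filter, and 0 to 1 with a library left out. In the combination against E2 2 were called by DESeq2, without the filter and with the compared libraries alone, and 0 to 2 with a library left out. With a library left out 1 to 2 were called in the combination against Dex and 2 to 3 for averaged dexamethasone. For averaged estradiol 2 were called by DESeq2, limma-voom and without the filter, and 1 to 2 with a library left out. With 2 libraries a group, the 95% interval of MYC in Dex against DMSO spanned 0.879 to 1.20-fold.

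The replicate numbers were checked for pairing by correlating the differences between replicates 1 and 2, which gave 0.243 for Dex and DMSO, 0.153 for E2 and DMSO and 0.0493 for Dex and E2. With 2 numbers these do not show pairing. A replicate block over the 6 numbered Dex, E2 and DMSO libraries called 239 genes in Dex against DMSO and 441 in E2 against DMSO, with 2 and 1 members. The same 6 libraries without the block were a fit chosen after seeing the data. There CDKN1C kept its call in Dex against DMSO and CDKN1A lost it. In E2 against DMSO, CDKN1C had an adjusted p of 0.0134 with the block and 0.125 without it. No paired analysis was possible for the combination because both of its columns carry the number 1.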
